A study of Mus musculus with 2 samples.

Results

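Mitochondrial ribosomal protein genes were examined in mouse liver on 1-colour Affymetrix arrays. They were taken as the genes whose symbol begins with Mrpl (large subunit) or Mrps (small subunit) followed by a digit, read by probe sets that name that gene alone. The arrays read 74 such genes out of 12394 named genes, 47 of the large subunit and 27 of the small subunit. All 74 reached the minimum signal of 80 on at least 1 array, as did 5912 genes in all, so none of the family was lost to the filter. The RefSeq gene table (GRCm38.p6) holds 78 protein-coding genes with such symbols. Of the 4 without a value, Mrpl30 and Mrpl53 were read only by probe sets that also name another gene, and Mrps10 and Mrps27 had no probe set named here.

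Both groups were female mice, 2 months old, labelled as homozygous for a knockout of the apolipoprotein E gene on a C57BL/6J background. One group of 6 mice ate chow with 10% (w/w) olive oil, and the other group of 6 ate the same chow with the same share of olive oil, here enriched in maslinic acid. Maslinic acid is a triterpene acid found in olive skin. Diets were fed for 4 weeks. The series holds 1 array per diet, and the labels do not say whether its RNA was pooled over mice. The comparison asks how liver transcripts differ when the oil contains maslinic acid. With 1 array per diet there is no replicate error and no test, so genes are described by signal and by size of ratio.

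The mitochondrial ribosome translates the few mRNAs encoded by mitochondrial DNA, which specify core subunits of the respiratory chain and of ATP synthase. Its rRNAs are mitochondrial transcripts, whereas all of its proteins are encoded in the nucleus, made in the cytosol and imported. Many of these proteins have a bacterial counterpart, and most of the others are found in mitochondrial ribosomes only. Liver is rich in mitochondria, and nuclear respiratory factor 1 and the ETS factor GA-binding protein are known regulators of nuclear genes for mitochondrial proteins.

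The arrays had the same 2% trimmed mean, 200.1, and nearly equal medians of 44.4 and 44.6. The targeted gene goes against the labels. Apoe read 407.7 on the olive oil-labelled array and 7630 on the maslinic acid-labelled array, although both groups are labelled as knockouts. The arrays may therefore differ in genotype, and diet and such a difference cannot be told apart in any ratio given here. Directions below are between the arrays as labelled. The liver label was checked with hepatocyte markers: all 11 on the array were measured, with summed signals of 89150 on the olive oil-labelled array and 79963 on the maslinic acid-labelled array. Their median log2 ratio was -0.18, with 10 of 11 lower on the maslinic acid-labelled array. Further probe sets did not all repeat this. Hnf4a had 0.64 on one, which read 909 and 1417.6, and -0.051 on another, and Tdo2 had 0.12. All further ones of Apoa1 and Ttr were lower. The probe sets used for the markers are bright, with a median signal of 8058. Among the 50 genes of highest signal on these arrays the median was also below 0, at -0.14, with 47 lower. The part of signal strength in the marker ratios was not tested. In bulk RNA, fewer cells of a type and less RNA per cell cannot be told apart.

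The promoters of the family were searched for a pair of motifs that do not enter the choice of genes. The RefSeq promoter table (GRCm38.p6), which spans 250 bases before to 50 bases after a transcript start, held 65 of the 74 genes. The motif of nuclear respiratory factor 1 was searched as GCGCA, any base, then GCGC, and the ETS motif as CCGGAAG, which reads CTTCCGG. Each was searched on both strands. The first was found in 12 of 65 genes (18.5%), against 13.2% of measured genes and 7.17% of all protein-coding genes in the table. The ETS motif was found in 24 genes (36.9%), against 22.4% and 12.9%. At least 1 of the motifs was in 32 of 65 genes (49.2%), against 32.3% of measured genes and 18.6% of all. Of the large subunit genes 9 of 41 held the first motif and 14 held the ETS motif, and of the small subunit genes 3 of 24 and 10 did. A match is a description of the letters and not a measured binding site.

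The following stretches show the highest and lowest genes of each subunit that the table holds. Each is written from 5′ to 3′ on the strand of the gene, with motif matches in capitals. The stretch of Mrps9 ends 20 bases after the transcript start, that of Mrps21 ends 28 bases after it, and those of Mrpl37 and Mrpl50 end just before it. Mrps9, the highest small subunit gene, has a match to the first motif at its start, and Mrps21, the lowest, has a match to each motif. Mrpl37 and Mrpl50 have neither within the window. These 4 genes are shown for their ratios and not for their motifs. Over all 65 genes, the 12 with the first motif had a median log2 ratio of -0.030, with 4 higher and 8 lower on the maslinic acid-labelled array, and the 53 without it had 0.018, with 31 higher and 22 lower. The 24 genes with the ETS motif had -0.013, with 10 higher and 14 lower. The 41 without it had 0.020, with 25 higher and 16 lower. Over all measured genes the median was -0.0099, with 47.9% higher and 52% lower. A link between motif and ratio was not tested.
Mrps9, chr1:42851173-42851253, plus strand: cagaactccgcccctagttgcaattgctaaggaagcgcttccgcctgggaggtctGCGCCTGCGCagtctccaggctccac
Mrps21, chr3:95871486-95871624, minus strand: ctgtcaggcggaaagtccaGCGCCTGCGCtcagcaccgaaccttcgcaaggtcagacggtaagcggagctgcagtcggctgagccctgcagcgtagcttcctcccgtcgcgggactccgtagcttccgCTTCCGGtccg
Mrpl37, chr4:107066867-107066966, minus strand: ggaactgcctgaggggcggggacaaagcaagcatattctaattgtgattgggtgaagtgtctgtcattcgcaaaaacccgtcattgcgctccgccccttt
Mrpl50, chr4:49521084-49521176, minus strand: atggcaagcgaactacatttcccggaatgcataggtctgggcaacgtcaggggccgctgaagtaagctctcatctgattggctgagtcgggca

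Mrpl45, which anchors the ribosome to the inner membrane, held 3 matches to the motif of nuclear respiratory factor 1, the most of any of the 65 genes, and its signal was 150.7 on the olive oil-labelled array and 152.3 on the maslinic acid-labelled array.
Mrpl45, chr11:97315586-97315744, plus strand: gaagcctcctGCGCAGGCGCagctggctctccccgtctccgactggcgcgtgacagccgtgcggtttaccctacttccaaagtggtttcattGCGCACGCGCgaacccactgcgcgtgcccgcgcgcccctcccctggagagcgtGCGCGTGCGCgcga

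As a family, the mitochondrial ribosomal protein genes read nearly alike on both arrays. The log2 ratio, maslinic acid-labelled over olive oil-labelled array, had a median of 0.014 over the 74 genes, against -0.0099 over all 5912 measured genes. It ran from -0.34 for Mrpl50 to 0.44 for Mrpl54, with an SD of 0.147 between genes. A ratio above 1 was seen for 40 of 74 genes, where the background over all measured genes was 47.9%, and a ratio below 1 for 34, where it was 52%. At a limit of 0.32 on the log2 scale, 2 genes were higher (background 6.56%) and 1 was lower (background 6.29%). At 1.5-fold there were 0 of 74, where 1.47% of all measured genes were higher and 1.57% lower. Within 1.1-fold lay 53 of 74 genes, or 71.6%, against 54.8% of all measured genes. At 1.1-fold or more, 12 genes were higher and 9 lower, and the backgrounds were 21.8% and 23.4%.

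**Figure D1:**
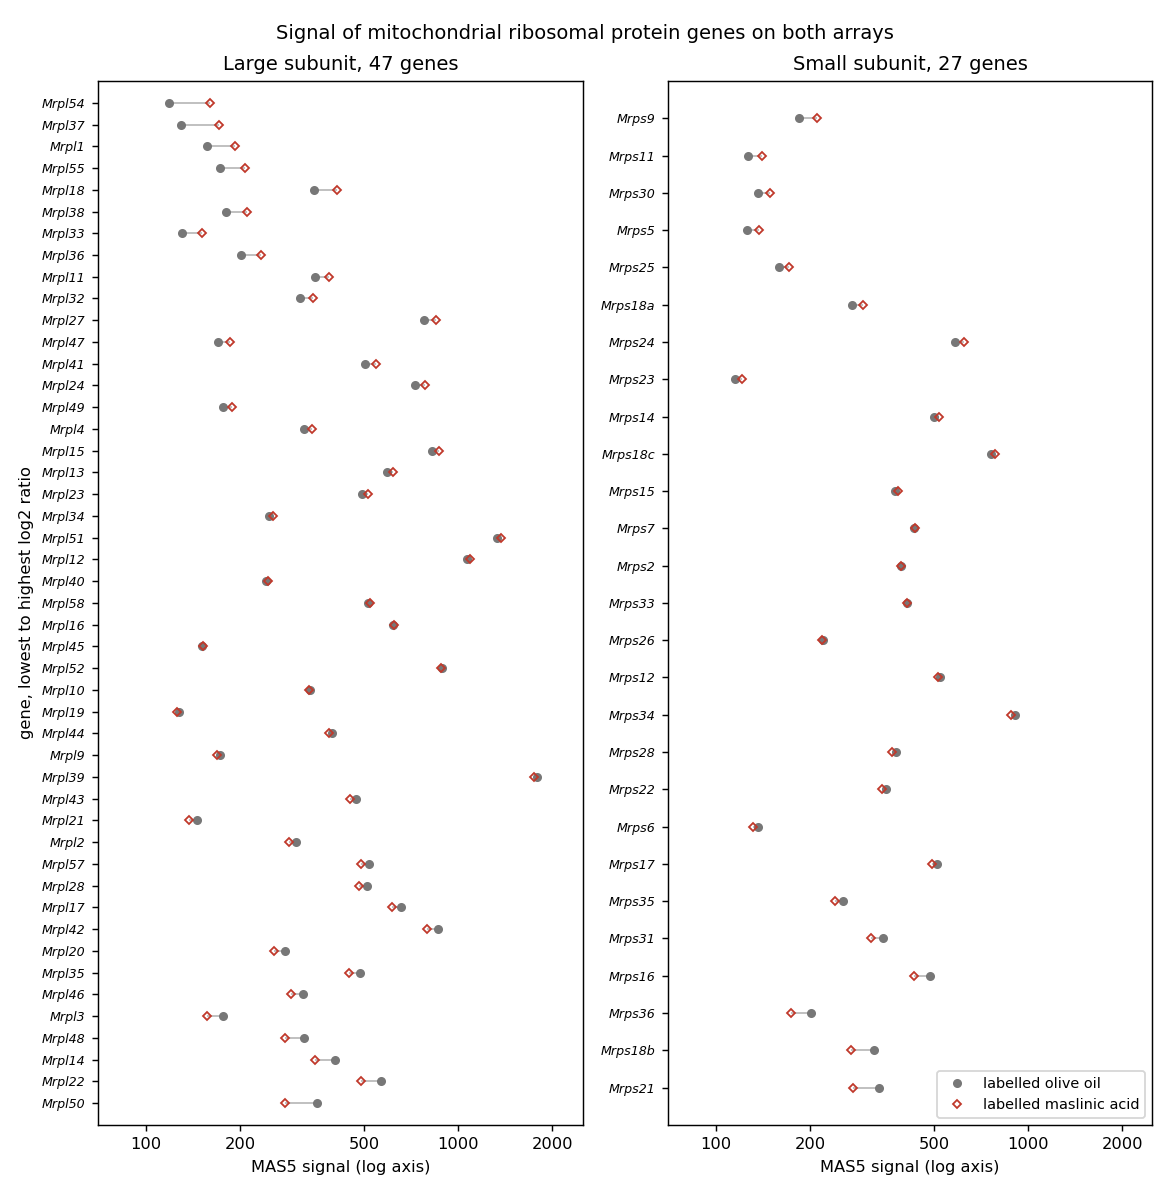
MAS5 signal (log axis) of each of the 74 genes on the olive oil-labelled array (grey circles) and on the maslinic acid-labelled array (red diamonds), ordered by log2 ratio within the large (47) and small (27) subunit. Most pairs nearly touch: 53 of 74 genes lie within 1.1-fold, and the widest gap is that of Mrpl54, 118 against 159.6.

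The genes furthest above 1 belonged to the large subunit. Mrpl54, found in mitochondrial ribosomes and not in bacterial ones, read 118 on the olive oil-labelled array and 159.6 on the maslinic acid-labelled array, 1.35-fold higher. Mrpl37, also specific to mitochondria, read 129.5 and 170.7, 1.32-fold higher. By the brightest probe set of each gene, these 2 were the only ones above the limit of 0.32, and each was read by 1 probe set. Mrpl1, the counterpart of the bacterial stalk protein L1, read 156.4 and 192.5, a log2 ratio of 0.30. Mrpl55, another mitochondria-specific protein, read 172 and 207.4, a log2 ratio of 0.27. Mrpl18, whose bacterial counterpart binds the 5S rRNA, read 345.7 and 409.3, a log2 ratio of 0.24. Of these 5 genes only Mrpl18 had a mean signal over 200. Further measured probe sets of Mrpl13 (0.65), Mrpl9 (0.37) and Mrpl15 (0.33) also lay above the limit of 0.32, though the brightest ones of these genes did not.

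The lowest ratios of the large subunit were smaller in size. Mrpl50 read 351.9 on the olive oil-labelled array and 277.2 on the maslinic acid-labelled array, 1.27-fold lower and the only gene of the family below the limit of -0.32. Mrpl22, a protein of the peptide exit tunnel, read 563.6 and 485.5, a log2 ratio of -0.22. Mrpl14, which binds the ribosome silencing factor Malsu1, read 402.5 and 348, a log2 ratio of -0.21. Mrpl48, of the central protuberance, read 319.1 and 279.2 (-0.19), and Mrpl3, a core rRNA-binding protein, read 175.7 and 156.2 (-0.17). For Mrpl50, Mrpl48 and Mrpl3 a further probe set had the opposite sign, as given below.

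The next values of the large subunit are ordered by the place of the protein in the ribosome. The genes in this paragraph were named for the place of their protein, and those outside the naming rule were picked with their values known, so no pattern is read from them. Mrpl48 and Mrpl11 had probe sets of both signs. Of the exit tunnel proteins, Mrpl23 read 492.5 and 513.1 and Mrpl24 read 727.6 and 782.1 on the olive oil-labelled and maslinic acid-labelled arrays, both slightly higher on the latter, while Mrpl22 was lower. In the stalk that recruits translation factors, Mrpl12 read 1064.4 and 1085.6, Mrpl10 read 333.9 and 331.5, and Mrpl11, at the base of the stalk, read 346.7 and 386. Their log2 ratios ran from -0.010 to 0.15. In the central protuberance, Mrpl38 had a log2 ratio of 0.22, whereas Mrpl46 had -0.13 and Mrpl48 -0.19. Of the rRNA-binding core, Mrpl2 read 302.6 and 285.7, Mrpl4 read 320.5 and 339.3, and Mrpl16 read 615.3 and 622.7. Mrpl58, a peptidyl-tRNA hydrolase built into the ribosome, read 513.6 and 520.2.

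The brightest probe sets of the large subunit differed little between the arrays. Mrpl39, a protein related to threonyl-tRNA synthetase, had signals of 1784.9 on the olive oil-labelled array and 1743.7 on the maslinic acid-labelled array. Mrpl51 read 1332 and 1365.9. With Mrpl12, these 3 genes had log2 ratios between -0.034 and 0.036. Signals of different probe sets are not comparable as transcript levels, so the order of brightness is that of probe sets.

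In the small subunit 27 of 27 genes lay within 0.32 of 0 on the log2 scale, as did 87.1% of all measured genes. Mrps9, the highest, read 185.2 on the olive oil-labelled array and 211.1 on the maslinic acid-labelled array, a log2 ratio of 0.19. Mrps11 read 127.1 and 140.2 (0.14), Mrps30 read 136 and 149.4 (0.14), Mrps5 read 126.2 and 137.7 (0.13) and Mrps25 read 158.9 and 171.9 (0.11). These 5 genes had dim probe sets, with mean signals under 200.

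Mrps21, the lowest, had signals of 332 on the olive oil-labelled array and 274.9 on the maslinic acid-labelled array, 1.21-fold lower. Mrps18b followed with 320.7 and 271.3 (-0.24), Mrps36 with 201 and 173.7 (-0.21), Mrps16 with 485.9 and 430.1 (-0.18) and Mrps31 with 343 and 313.6 (-0.13). Mrps36 keeps its ribosomal symbol although its protein is known as a component of the 2-oxoglutarate dehydrogenase complex. The genes with the brightest probe sets were close to equal. Mrps34 read 908.2 and 884.1, Mrps18c read 757.4 and 782.2, and Mrps24 read 582.6 and 621.5. Mrps12, whose bacterial counterpart lies at the decoding centre, was named for that role and read 521.2 and 515.2.

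The 3 Mrps18 paralogues descend from the bacterial protein S18, and their genes did not share a direction. Mrps18a read 273.6 on the olive oil-labelled array and 295.2 on the maslinic acid-labelled array, a log2 ratio of 0.11. Mrps18b had a log2 ratio of -0.24 and Mrps18c of 0.046. Each of the 3 genes had 1 measured probe set. Over all genes with several, the SD within genes between probe sets was 0.23. Structures of the mammalian mitochondrial ribosome place the products of Mrps18a and Mrps30 in the large subunit, despite their symbols. Both genes had ratios slightly above 1.

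The medians of the subunits were close to each other. The median log2 ratio was 0.018 over the 47 large subunit genes and 0.0021 over the 27 small subunit genes, a difference of 0.016. Over the alternative settings this difference ran from 0.0050 with quantile normalization to 0.032 with a minimum signal of 160. The means were 0.030 and -0.0088, a difference of 0.039. The SD between genes was 0.16 in the large and 0.12 in the small subunit. The median of the small subunit was -0.0044 after scaling to equal medians, so its sign carries no direction. With Mrps18a and Mrps30 counted in the large subunit the medians were 0.020 and -0.0085. Ratios above 1 made up 26 of 47 large subunit genes (55.3%) and 14 of 27 small subunit genes (51.9%), against 47.9% of all measured genes. The large subunit had 10 genes at least 1.1-fold higher and 5 lower, and the small subunit 2 and 4, against backgrounds of 21.8% and 23.4%.

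Genes of proteins with a bacterial counterpart were also set beside those listed without one. The 44 genes of the first kind had a median log2 ratio of 0.023, with 25 above 0 and 44 of 44 within 0.32 in size, against 87.1% of all measured genes. The 30 genes of the second kind had a median of -0.0011, with 15 above 0 and 15 below. Of all measured genes, 47.9% were above 0. The 3 genes beyond 0.32 in size, Mrpl54, Mrpl37 and Mrpl50, are all of the second kind and of the large subunit. They make up 3 of 30 genes, where 12.9% of all measured genes lay beyond that limit. Mrpl47, counted here with the second kind, has the bacterial counterpart L29, and Mrps36 is not a core ribosomal protein. In an alternative added after the values were seen, Mrpl47 was moved to the first kind and Mrps36 left out. The medians were then 0.028 over 45 genes and -0.0011 over 28 genes.

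Of the signal bands, the dimmest held the highest share of ratios above 1. The bands, divided at 200 and 400, were chosen after the values were seen. Of the 21 genes with a mean signal under 200, 15 had a ratio above 1 and the median log2 ratio was 0.13. Over the 2430 measured genes under 200, 50.6% had a ratio above 1 and the median was 0.0044. These 2430 genes reach dimmer signals, with means from 47.8 to 199.75, against 118.55 to 198.15 for the 21. Of the 25 genes between 200 and 400, 10 had a ratio above 1 and the median was -0.027, against 48.7% and -0.0057 over all measured genes in that band. Of the 28 genes at 400 or more, 15 did and the median was 0.0072, against 44.1% and -0.020. In the dimmest band, 9 of 13 large subunit genes and 6 of 8 small subunit genes had a ratio above 1. Spread narrowed with signal: 28 of 28 genes in the brightest band and 17 of 21 in the dimmest lay within 0.23 on the log2 scale, the SD within genes over all genes with several measured probe sets. Over all measured genes these shares were 86.8% and 66.6%, so the spread narrowed with signal there too. Across the 74 genes the correlation of log2 mean signal with log2 ratio was r = -0.24 (Spearman rho -0.21), given as a description since the genes share both arrays, and it was 0.0041 over the 4147 other genes in the same signal range. The dimmest genes, just above the minimum signal, were Mrps23 at 115.5 and 121.6, Mrpl19 at 127.5 and 125.6, and Mrps5.

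**Figure D2:**
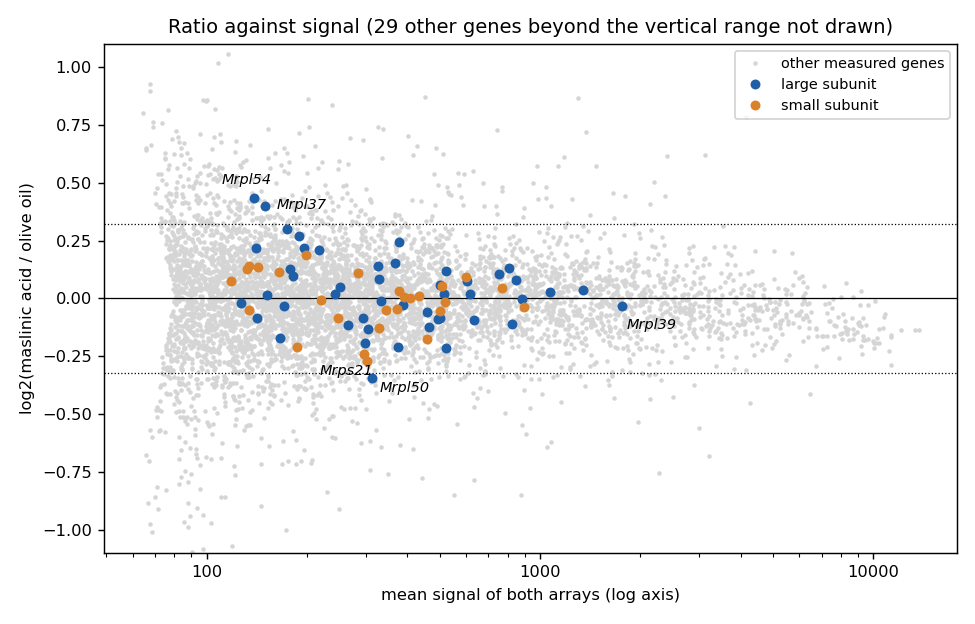
Log2 ratio of maslinic acid-labelled over olive oil-labelled array against mean signal of both arrays (log axis) for large (blue) and small (orange) subunit genes and other measured genes (grey, 29 of 5838 beyond the vertical range). Dotted lines mark 0.32 and -0.32, and only Mrpl54, Mrpl37 and Mrpl50 lie beyond them, and the genes at the left of the family lie mostly above 0.

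The only repeat measurement on these arrays is a further probe set of the same gene, which shares the hybridisation. Of the 74 genes, 19 had at least 2 measured probe sets, 46 in all, and their log2 ratios had an SD within genes of 0.20. The SD of 0.147 between genes of the family is over the brightest probe set of each of the 74 genes. As the 46 include dimmer probe sets, these SDs are not like for like. In 6 of 19 genes all probe sets had the same sign (31.6%), against 47.9% of 1817 measured genes with several probe sets. In 5 of these 6, Mrpl13, Mrpl49, Mrps9, Mrps15 and Mrps24, all probe sets were above 0, and in Mrpl39 both were below.

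Several of the more distant genes were not repeated by their further probe sets. Mrpl50 had log2 ratios of -0.34 and 0.14. Mrpl1 had 0.30 and -0.13, Mrpl48 had -0.19 and 0.22, and Mrpl3 had -0.17 and 0.26. In each of these 4 genes the sign thus depended on the probe set. Mrpl11 ranged from -0.27 to 0.15 over 3 probe sets, and Mrpl9, Mrpl28 and Mrpl41 also had both signs. The widest range was that of Mrpl13, from 0.073 on the brightest probe set to 0.65 on the dimmest, which read 77 and 121. Mrpl15, with 5 measured probe sets, ranged from -0.044 to 0.33. Mrpl44 and Mrpl52, each with 3 measured probe sets, spanned 0, from -0.11 to 0.11 and from -0.082 to 0.12. In the small subunit, Mrps14 and Mrps23 differed by under 0.1 between probe sets and crossed 0. The 27 further probe sets of the family had a median log2 ratio of 0.10, with 17 above 0, and a median signal of 257. They come from only 19 genes and are dimmer than the brightest probe sets of those genes. The same share over further probe sets of all genes was not computed, so no shift is read from these values.

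**Figure D3:**
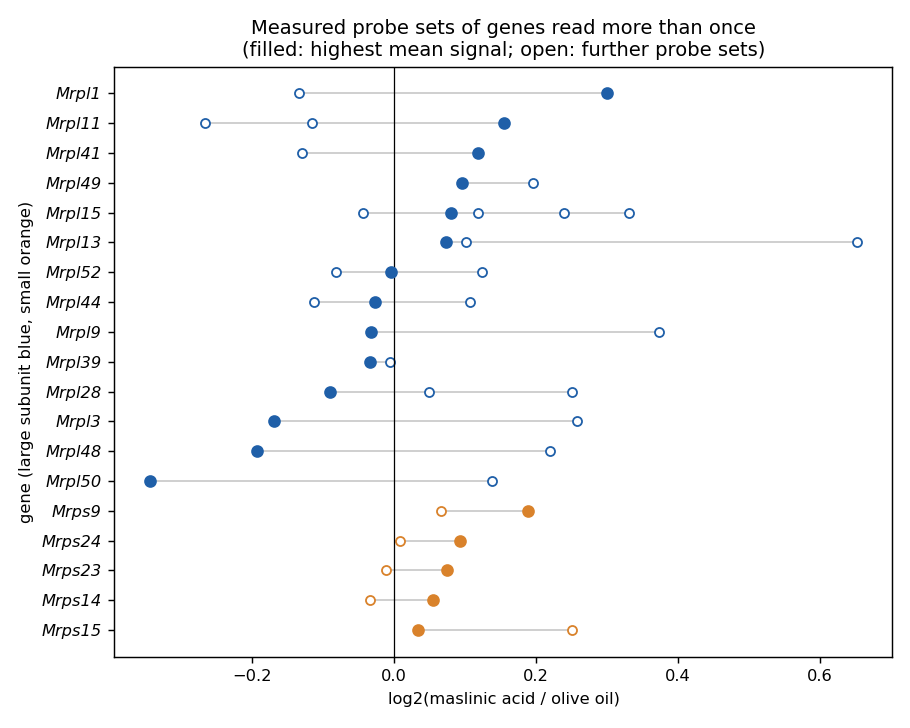
Log2 ratio of each measured probe set of the 19 genes read more than once, large subunit in blue and small subunit in orange, with the brightest probe set filled and further probe sets open. In 13 genes the points lie on both sides of 0, and Mrpl13 has the widest range, 0.073 to 0.65.

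Many genes of the family start next to an oppositely directed gene. Among the 65 genes in the promoter table, 22 (33.8%) had the start of another protein-coding gene within 1000 bases on the opposite strand, pointing away, against 14.4% of measured genes and 8.48% of all protein-coding genes in the table. Mrpl46 and Mrps11, which encode a protein of each subunit, start 42 bases apart. Mrpl46 read 318.8 on the olive oil-labelled array and 291.1 on the maslinic acid-labelled array, and Mrps11 read 127.1 and 140.2. Their log2 ratios were -0.13 and 0.14. Each gene had 1 measured probe set. Both ratios lay within 0.23, the SD within genes between probe sets, so their signs carry no direction. Mrpl43 starts 116 bases from Twnk, which encodes the mitochondrial DNA helicase, and 2 ETS matches lie between them. Mrpl43 read 469.3 and 450.5, and Twnk had no measured probe set. The intervals between both starts are shown on the plus strand, with ETS matches in capitals.
Mrpl46 and Mrps11, chr7:78783089-78783131: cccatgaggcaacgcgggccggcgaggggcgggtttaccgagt
Mrpl43 and Twnk, chr19:45006442-45006558: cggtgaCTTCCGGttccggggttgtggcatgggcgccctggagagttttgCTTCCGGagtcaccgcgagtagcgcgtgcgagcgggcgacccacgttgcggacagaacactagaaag

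Partners outside the family were measured for 7 of these genes, and the pair had opposite signs in 3. The partners were named for their position. Mrpl18 (0.24) starts 238 bases from Tcp1, a subunit of the cytosolic chaperonin, which had a log2 ratio of 0.053. Mrpl32 (0.14) starts 205 bases from the proteasome gene Psma2 (0.018). Mrpl47 (0.13) starts 308 bases from the complex I gene Ndufb5 (-0.038), and Mrpl49 (0.095) starts 192 bases from the ribosomal gene Fau (-0.16). Mrpl2 (-0.083) and Klc4 (0.26) also differed in sign, while Mrpl14 (-0.21) and Tmem63b (-0.042) were both lower and Mrpl41 (0.12) and Pnpla7 (0.047) both higher. All of these ratios except that of Klc4, and those of Mrpl18 and Mrpl14, were within 0.2 of 0. As the SD within genes between probe sets was 0.23, no direction is read from the signs of these pairs.

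Ratios of other genes of mitochondrial translation also lay near 1. Mitoribosomal proteins under other symbols, Dap3, Ptcd3, Chchd1 and Gadd45gip1, had log2 ratios between -0.082 and 0.069. The 8 measured translation factors had a median of -0.099, with 3 higher and 5 lower, where 47.9% of all measured genes were higher and 52% lower. Tufm, the elongation factor that delivers aminoacyl-tRNA, read 119.7 on the olive oil-labelled array and 98.2 on the maslinic acid-labelled array (-0.29), and Mtres1 read 451.4 and 383.9 (-0.23). The 8 measured genes for charging mitochondrial tRNAs had a median of -0.018, with 4 higher and 4 lower, led by the synthetase gene Hars2 at 89.2 and 109 (0.29) and by Tars2 at 92.5 and 79.6 (-0.22). By the brightest probe set, none of the genes in these 2 lists of 8 reached 0.32 in size, where the background over all measured genes was 12.9%. Fars2 had -0.088 on its brightest probe set and 0.34 on its further one.

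Genes that build the ribosome or regulate mitochondrial content had medians slightly below 0. So did all measured genes, at -0.0099, of which 52% were lower. The 13 measured assembly and rRNA modification genes had a median log2 ratio of -0.033, with 6 higher and 7 lower. Mtg2, a GTPase of large subunit assembly, read 129.8 on the olive oil-labelled array and 172 on the maslinic acid-labelled array (0.41). By the brightest probe set it was the only one of the 13 beyond 0.32 in size, where the background over all measured genes was 12.9%. Fastkd2 had 0.0017 on its brightest probe set, but 0.78 and 0.17 on its further ones. Mettl17 read 109.4 and 89.8 (-0.28). The 17 measured regulators of mitochondrial transcription and biogenesis had a median of -0.016, with 7 higher and 10 lower. Ssbp1, which binds single-stranded mitochondrial DNA, read 1223.4 and 965.5 (-0.34), and had -0.15 on its further probe set. Ppargc1a, a coactivator of nuclear respiratory factors, read 128.4 and 105.5 (-0.28), but its 4 probe sets ranged up to 0.30.

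Nuclear genes of the respiratory chain and ATP synthase, and genes of cytosolic ribosomal proteins, had lower medians than the mitochondrial ribosomal protein genes. The first list includes complex II, which has no subunit made on mitochondrial ribosomes, and had a median log2 ratio of -0.066 over 71 measured genes, with 53 lower and 17 higher. Atp5md read 1914.5 on the olive oil-labelled array and 1419.1 on the maslinic acid-labelled array (-0.43), and Cox8a read 1468.4 and 1162 (-0.34). For cytosolic ribosomal protein genes the median was -0.057 over 36 measured genes, with 26 lower, and Rps27 (-0.83) and Rpl39 (0.71) as the extremes on dim probe sets. Both lists have brighter probe sets than the family, with median signals of 2088 and 3485 against 331.3. Over all measured genes with a signal of 400 or more the median log2 ratio was -0.020, with 44.1% above 0, and over the 50 brightest it was -0.14. No test of the difference between lists can be had with 1 array per diet, and the part of signal strength in it was not tested.

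**Figure D4:**
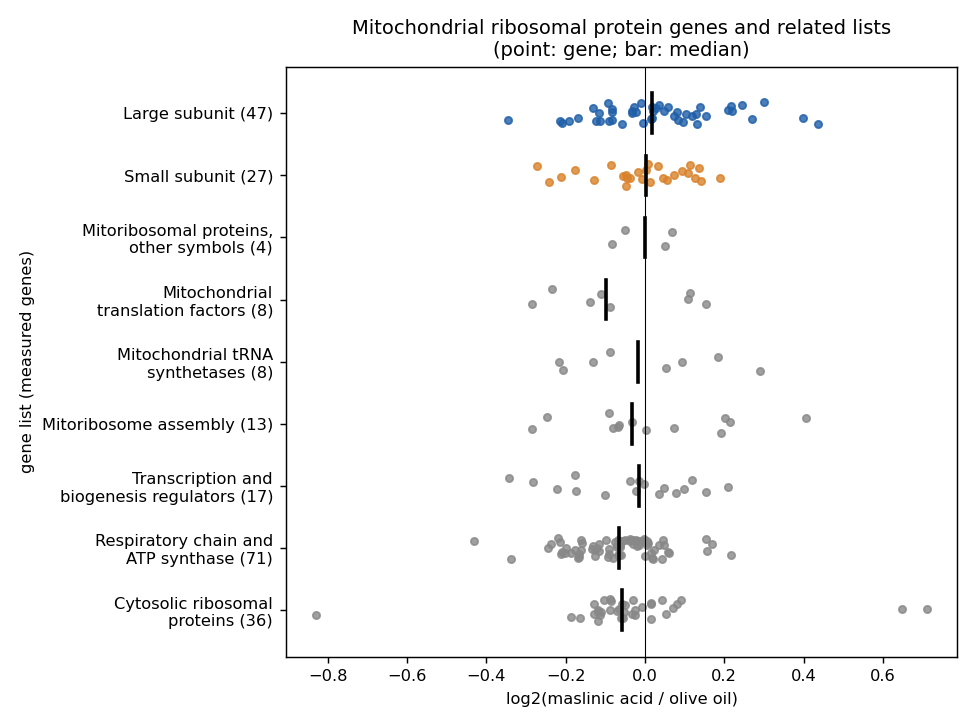
Log2 ratio of maslinic acid-labelled over olive oil-labelled array for measured genes (points) of the large and small subunit and of 7 related lists, with the number of genes in brackets and the median as a bar. The medians of both subunits, 0.018 and 0.0021, lie close to 0, and those of the respiratory chain and of cytosolic ribosomal proteins lie at -0.066 and -0.057.

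Marker lists of other liver cell types had medians on both sides of 0. Over all measured genes, 47.9% were higher and 52% lower. Stellate cell and matrix markers had a median log2 ratio of 0.21 over 9 measured genes, with 7 higher. The further probe sets of Vim were also higher, at 0.18 and 0.41. The further one of Rgs5 read 91.3 and 38.4 (-1.19), against -0.085 on its brightest. Endothelial markers had -0.10 over 8 genes, with 7 lower. Macrophage markers had 0.027 over 11 genes, 6 higher and 5 lower, but Marco, a macrophage scavenger receptor, read 338.1 on the olive oil-labelled array and 84.6 on the maslinic acid-labelled array (-2.0). Lymphocyte markers were mostly dim, with 7 of 10 under the floor of 40 on both arrays. The 2 that were measured were Ighm, the immunoglobulin heavy chain gene, at 322.9 and 936.2 (1.54, and from 0.49 to 1.54 over its 3 probe sets), and Ptprc at 367 and 333.4 (-0.14). Cholangiocyte markers were dim too, with 5 of 6 under the floor on both arrays. The part of these cell types in the ratios of the mitochondrial ribosomal protein genes was not tested.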

How the data were processed

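Liver RNA was measured on 2 arrays, 1 per diet. The deposited values are 1 linear intensity per probe set, which the authors obtained with MAS5 according to the submitters' processing notes. No version was stated in the sources used here. The method equalises the trimmed means of arrays, and low signals vary more than high ones. Detection calls were not used here. Probe sets (22690) were named from the platform annotation, which gave 1 gene for 20393. Of these, 20364 matched the gene table by Entrez number with 0 symbols changed.

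A gene was represented by its probe set with the highest mean signal and counted as measured where that reached 80 on at least 1 array. Signals under 40 were set to 40 before log2 ratios. The arrays' number limits the precision, and no test was made. Named genes were those at least 1.5-fold apart, the 5 highest and 5 lowest and the 3 brightest per subunit, those with several measured probe sets, Mrps18a, Mrps18b, Mrps18c and Mrps30, the 3 dimmest, and up to 2 genes per related list. Bacterial counterparts and lists were set from general knowledge. The family, lists and rules were chosen with earlier results of these data known. Python 3.11.15, pandas 2.3.3, numpy 2.4.6 and statsmodels 0.14.6 (loess, span 0.3) were used. The code was checked on simulated data with planted changes and less noise than the SD between probe sets here. That check says nothing about the precision of the ratios. Alternatives covered scaling, floor, minimum, probe set choice, subunit assignment and, added after seeing the data, the assignment of Mrpl47 and Mrps36 to the bacterial counterpart lists.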

Additional observations from a re-analysis of the deposited data

Results flagged for a closer look

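A few probe sets outside the comparison name a mitochondrial ribosomal protein gene together with another gene and read above the minimum signal, so the genes cannot be told apart. The probe set naming Gm6238 and Mrpl30 read 1286.2 on the olive oil-labelled array and 1164.4 on the maslinic acid-labelled array, a log2 ratio of -0.14. The probe set naming Ccdc142 and Mrpl53 read 482.1 and 447.7, a log2 ratio of -0.11. The probe set naming Nme3 and Mrps34 read 247.6 and 276.9, a log2 ratio of 0.16, whereas the probe set naming Mrps34 alone gave -0.039.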

How the results depend on the processing

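No paired analysis was possible because there is a single array for either diet, and no array could be left out. Of 85 summary values under the alternatives, 85 stayed within a limit. For medians it was the SD within genes divided by the root of the number of genes, and for counts 1.5 times. Some settings could not change these values, because every gene of the family read above their limits. These were floors of 20 and 80, no minimum, and a minimum of 80 applied to averaged signals. The limit was also wide beside small estimates. It was 0.056 for the subunit difference of 0.016, and 0.045 for the small subunit median of 0.0021. A change of sign could thus stay within it. The median log2 ratio of the family stayed between 0.0044 and 0.014. That of the small subunit turned to -0.0044 with equal medians and -0.013 with a minimum of 160, which left 64 genes measured. No gene reached 1.5-fold under any of the alternatives. Of 391 values of named genes, which include the settings that could not change them, 389 moved by less than 0.23. The exceptions were Mrpl50 at -0.10 with the mean of all probe sets and Mrpl11 at -0.12 without _x_at and _s_at probe sets. Mrpl54 and Mrpl37, the highest genes, each had no value under one alternative. Mrpl54 was not measured at a minimum of 160, and Mrpl37 was read only by an _s_at probe set. Of 40 named genes, 7 changed sign under some alternative: Mrpl3, Mrpl9, Mrpl11, Mrpl28, Mrpl41, Mrpl48 and Mrpl52. Scaling shifted the median of all genes by -0.0065 to 0.0055. Signal over background limits the dim genes.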
